A study of Mus musculus with 8 samples.

Results

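The B cell precursor genes described here were Vpreb1, Vpreb2, Vpreb3, Igll1, Rag1, Rag2, Dntt and Il7r. They were taken by symbol as the surrogate light chain, V(D)J recombination and IL-7 receptor genes of pro-B and pre-B cells, and all 8 were among the 23084 genes of the deposited RNA-sequencing table. The study compared splenic myeloid cells of wt and LmnaMyeKO mice, the latter bred from mice with floxed Lmna and LysM-Cre mice, so that Cre made under the control of the LysM gene deletes Lmna, the gene of lamin A/C, in myeloid cells. The 8 samples formed 4 groups of 2, namely CD11b+Ly6C+ (monocytic) and CD11b+Ly6G+ (granulocytic) cells of each genotype, all sorted from spleens of C57BL/6 mice aged 6 to 8 weeks. The subset was read from the sample titles, because the cell marker label gives the monocytic phenotype throughout. Whether wt mice carried floxed alleles or Cre is not given in the sources used here. The study's text on the RNA-sequencing does not say whether these mice bore tumours.

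In pro-B cells, the Rag1 and Rag2 proteins cut immunoglobulin gene segments so that they can be joined, and terminal deoxynucleotidyl transferase, made from Dntt, adds bases at the joins of the heavy chain. The new heavy chain is then tested on the cell surface with a surrogate light chain. That chain is made of the product of Vpreb1 or Vpreb2 and of lambda5, the product of Igll1. Meanwhile, IL-7 acting through the receptor chain encoded by Il7r keeps the cells alive and dividing. In adult mice this takes place mainly in the bone marrow. Il7r is also known from T cells and innate lymphoid cells, and Rag1, Rag2 and Dntt from immature T cells of the thymus.

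The level used for each gene was the authors' mean of read counts divided by library size factors, which is 1 value per gene over pooled libraries. The digits of the low means showed what was pooled. Each of the 6124 means under 3 was a sum of whole multiples of the same 8 step sizes within 1.5e-09, a step being what 1 read of a library adds to the mean, and 6104 of them had exactly 1 such solution. The steps corresponded to 8 libraries with size factors from 0.796 to 1.05 in 7 of them and 1.91 in the other, with a geometric mean of 1.01. This is the number of samples in the series, so the mean was taken to cover both genotypes and both subsets in a single number. The libraries so recovered carry no label, and levels could not be compared between wt and LmnaMyeKO cells or between monocytic and granulocytic cells. The mean of Lmna itself was 79.5 normalized reads, and as a pooled value it could not check the genotype labels. Among the genes solved, none had reads in fewer than 2 libraries. Numbers of reads given here and below are in units of the authors' estimated counts, which need not be reads seen singly.

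The table listed no gene without reads, its lowest mean being 0.185 normalized reads. A place in it thus says little more than that a gene was above 0. A mean of at least 10 normalized reads was reached by 7 of the 8 precursor genes and by 14312 of the 23084 genes. Per kilobase of the longest annotated transcript, the median of the 8 was 52.4 normalized reads, against 22.5 over all genes, and 6 of the 8 lay above the latter. All 8 are protein-coding genes, however, and against protein-coding genes alone the reading turned. Their median was 82.7 normalized reads per kilobase, and only Vpreb3 and Il7r lay above it, or Vpreb3, Il7r and Igll1 with the longest protein-coding transcript as the length. The median percentile of the members per kilobase was 43.5 among protein-coding genes and 58.4 among all genes. The levels per kilobase spread from 5.83 for Vpreb2 to 342 for Vpreb3. In sorted cells, fewer cells of a type and less RNA per cell cannot be told apart, so each level is that of the whole sorted population. Intervals given with the levels are 95% intervals for counting error only, set wide by treating each read as if it came from the library with the largest step, and they leave out the spread between mice, which a pooled mean does not show.

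Vpreb3 (ENSMUSG00000000903.3, chr10:75943057-75949657, plus strand) is grouped here with the surrogate light chain genes by name. Its product binds immunoglobulin heavy chains inside early B cells, and its level is not read as that of the surrogate light chain. Vpreb3 had a mean of 249 normalized reads (counting interval 237 to 262). Between 1588 and 3818 reads lay behind that mean, depending on which libraries they came from. Vpreb1 (ENSMUSG00000059305.10, chr16:16868403-16870843, minus strand), which encodes the VpreB part of the surrogate light chain, had a mean of 52.6 (47.0 to 58.3) from 335 to 806 reads. Per kilobase, Vpreb3 stood at 342 normalized reads and Vpreb1 at 68.1, a ratio of 5.02 between their levels. Vpreb3 was thus above Vpreb1 by more than counting error. It ranked above 82.7% of all genes and 75.9% of protein-coding genes per kilobase, but by the mean, with no correction for length, above 64.8% and 49.6% of them.

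Igll1 (ENSMUSG00000075370.10, chr16:16860671-16863985, minus strand), the partner of Vpreb1 in the surrogate light chain and its neighbour at a distance of 4418 bases, had a mean of 83.3 normalized reads (76.2 to 90.4). The level of Igll1 per kilobase depended on the transcript taken as its length. Its longest transcript, of 2161 bases, keeps an intron and gave 38.5 normalized reads per kilobase, less than Vpreb1. Its longest protein-coding transcript, of 870 bases, gave 95.8, which is 1.39 times the level of Vpreb1 on the same scale. The order of these partner genes thus turned with the choice of transcript. With the exons of all transcripts pooled as the length, they did not differ beyond counting error. The ratio of Igll1 to Vpreb1 was then 0.877 (0.765 to 1.01).

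Vpreb2 (ENSMUSG00000059280.3, chr16:17980428-17981273, plus strand), a near copy of Vpreb1, was the lowest of the 8 per kilobase, with a mean of 4.43 normalized reads (2.79 to 6.06). This is above the limit of 3 under which means were solved throughout, and its digits left 3 possible sets of whole counts. They held 38 reads in 7 libraries, 35 reads in 8 libraries and 45 reads in 6 libraries. In each of the 3 sets the library with the largest size factor had between 5 and 23 reads, and no other library exceeded 11. With a tolerance 10 times wider there were 12 sets, which held 31 to 52 reads in 6 to 8 libraries. In each of these 12 sets more than 1 library had reads of Vpreb2, but a single library held up to 71.2% of them. Means of the other 7 members were too high to be solved in this way.

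Vpreb1 and Vpreb2 were the only members whose transcripts shared long stretches with each other. Their coding sequences of 429 bases differed at 9 positions (97.9% identity), with an identical run of 196 bases, whereas Vpreb1 and Vpreb3 were 56.7% identical over aligned bases. Of the 75-base windows of the Vpreb2 transcript, 19.9% occurred unchanged in Vpreb1, and none of the windows of Vpreb3, Igll1, Dntt or Il7r occurred in another gene. With windows of 50 bases the share was 32.8% for Vpreb2 and 1.12% for Il7r, with 100 bases 14.7% and 0, and the read length is not given in the sources used here. Reads from such windows have to be shared out between the genes by the authors' counting, so the level of Vpreb2 in particular is uncertain. As counted, the level of Vpreb1 per kilobase was 11.7 times that of Vpreb2, or 7.52 times with the exons of all transcripts pooled as the length and 15.3 times with the median transcript. The stretch of 120 coding bases with the most differences, 6 of the 9, is shown as an example of where reads can tell the genes apart. It lies in a single coding exon of each gene, at chr16:16868638-16868757 on the minus strand for Vpreb1 and chr16:17980919-17981038 on the plus strand for Vpreb2 (GRCm38, the same build as mm10, transcripts of GENCODE M21). Both are written from 5′ to 3′, with the 6 bases that differ in capitals.
Vpreb1: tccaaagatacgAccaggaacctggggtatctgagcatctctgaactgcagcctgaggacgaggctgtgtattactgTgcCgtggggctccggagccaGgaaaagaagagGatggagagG
Vpreb2: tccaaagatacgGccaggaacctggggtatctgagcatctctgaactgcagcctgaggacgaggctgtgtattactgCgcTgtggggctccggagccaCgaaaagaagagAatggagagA

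Of the recombination genes, Rag1 (ENSMUSG00000061311.6, chr2:101638282-101649501, minus strand), which carries the catalytic site of the recombinase, had a mean of 307 normalized reads (293 to 320). Rag2 (ENSMUSG00000032864.4, chr2:101624718-101632529, plus strand), its cofactor, had a mean of 26.3 (22.3 to 30.3). Per kilobase the levels were 46.4 and 7.68, so that the Rag1 level was 6.04 times that of Rag2 (counting interval 5.16 to 7.08). The proteins act together in 1 complex and their genes lie 5753 bases apart, yet their levels differed by more than counting error. Dntt (ENSMUSG00000025014.12, chr19:41029275-41059525, plus strand) had a mean of 124 normalized reads (116 to 133). Its level of 58.3 normalized reads per kilobase was 1.26 times that of Rag1.

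Both Rag genes lie inside the span of B230118H07Rik, a protein-coding gene on the minus strand at chr2:101560781-101649532 with a mean of 47.7 normalized reads. Its exons overlap 80 of the exonic bases of Rag1 on the same strand and 208 of those of Rag2 on the opposite strand, or 1.21% and 6.07% of their exonic length. Vpreb1 likewise overlaps Top3b, a topoisomerase gene on the opposite strand, over 108 exonic bases, which is 9.01% of its exonic length. Top3b stood at 324 normalized reads per kilobase, above the 68.1 of Vpreb1. Whether the counting used the strand of reads is not given in the sources used here, and reads from these stretches may have been given to either gene. The 4 genes nearest to Vpreb3 shared no exonic base with it, and their levels were unlike each other. Gm16221, a pseudogene inside the span of Vpreb3, had 2 reads, in 2 of the 8 libraries, and Gm867 had 7, in 5 of them, whereas Gm5134 had a mean of 10.7 normalized reads and Chchd10, at a distance of 5310 bases, one of 273.

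**Figure D1:**
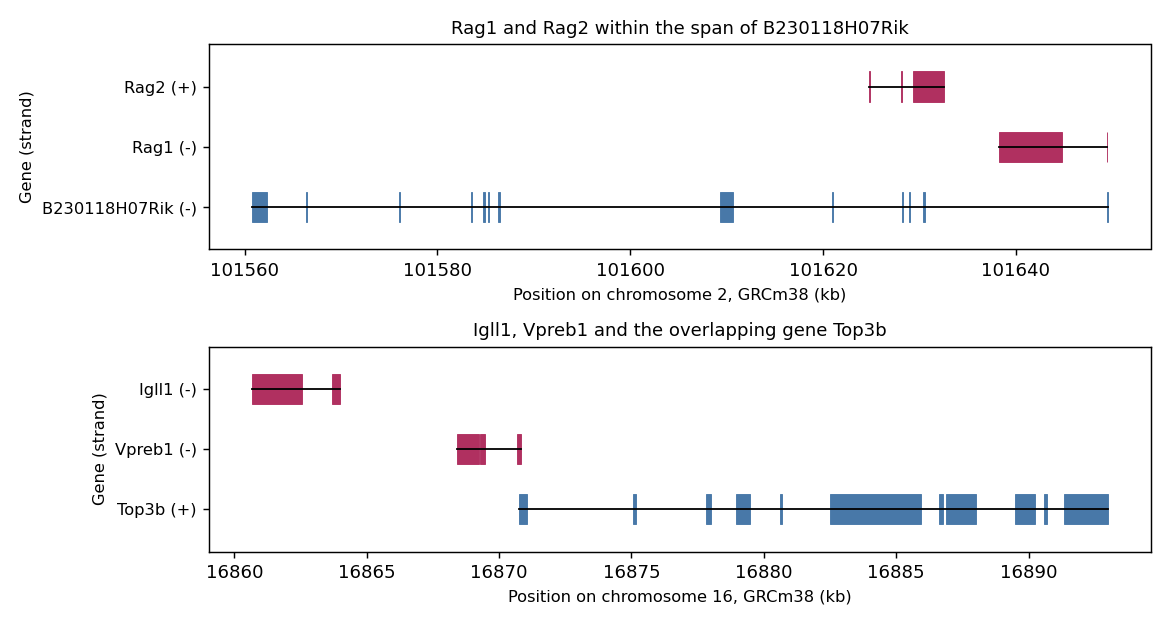
Gene maps drawn to scale, with the position in kilobases on chromosome 2 (top) and chromosome 16 (bottom) of GRCm38 on the horizontal axis and genes with their strand on the vertical axis. Boxes are exons pooled over annotated transcripts, red for B cell precursor genes and blue for overlapping genes; exons of B230118H07Rik overlap Rag1 by 80 bases and Rag2 by 208, and the start of Top3b overlaps Vpreb1 by 108.

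Il7r (ENSMUSG00000003882.4, chr15:9505788-9530176, minus strand), the ligand-binding chain of the IL-7 receptor, had a mean of 588 normalized reads (569 to 607) from 3744 to 8998 reads. Per kilobase it came after Vpreb3, with 166 normalized reads against 342. Between Il7r and the surrogate light chain gene Vpreb1, the ratio of levels per kilobase was 2.44. The order of levels per kilobase was Vpreb3, Il7r, Vpreb1, Dntt, Rag1, Igll1, Rag2 and Vpreb2. Only the last neighbours in this order, Rag2 and Vpreb2, did not differ beyond counting error, with a ratio of 1.32 (0.884 to 1.96). With the median transcript length the ratio was 1.71 (1.15 to 2.55) and they did. With pooled exons the order was another, and neither Vpreb1 and Igll1 nor Rag2 and Vpreb2 differed beyond counting error. Rag1 and Vpreb1, neighbours in that order at 46.4 and 43.9 normalized reads per kilobase, were not compared for counting error. Vpreb3 and Il7r held the first places, and Rag2 and Vpreb2 the last, under each of the 4 transcript lengths tried, while Vpreb1, Dntt, Rag1 and Igll1 changed places.

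The partners of these genes in the pre-B cell stood much higher. All 12 genes listed for the pre-B cell receptor and its signalling were in the table, with a median of 1735 normalized reads per kilobase. Of the 12, 11 exceeded Vpreb3, or all 12 with the median or the longest protein-coding transcript as the length. The 3 with the highest means were Ighm, the heavy chain that pairs with the surrogate light chain, at 37763 normalized reads per kilobase, and the kinases Syk and Lyn, at 4195 and 3528. Syk and Lyn are also used by myeloid cells. The lowest was the adaptor Blnk, with 259, or 560 with either of those other lengths. Cd79a, a signalling chain of the B cell receptor that is limited to B cells, had 4065 normalized reads per kilobase. The level of Vpreb1 was 1.68% of that of Cd79a, or 1.08% with pooled exons as the length. That of Igll1 was 0.948%, or 2.36% with its longest protein-coding transcript. Vpreb3 reached 8.42% of Cd79a.

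Genes that join the ends cut by the Rag proteins are used by most cells to repair DNA. The list of these genes, which also held Hmgb1 and Hmgb2, had all 12 in the table. Its median was 99.5 normalized reads per kilobase. The genes with the highest means were Hmgb2 and Hmgb1, chromatin proteins that assist the cutting, with 5264 and 1484 normalized reads per kilobase, and the nuclease gene Dclre1c with 164. Nhej1 had the lowest mean, with 86.6 per kilobase. In the list, 11 of 12 genes exceeded the level of Rag1, or all 12 with the median transcript as the length and 10 with pooled exons. Rag1 itself ranked above only 57.2% of all genes and 42.1% of protein-coding genes per kilobase, so a level above it is common. The 11 genes of IL-7 receptor signalling had a median of 1432 normalized reads per kilobase, and those with the highest means were the survival gene Mcl1 with 9906 per kilobase, Jak1 with 2754 and Stat5b with 1114. The lowest was Cish, a feedback inhibitor, with 40.5. Il2rg, which encodes the common chain that completes the IL-7 receptor, had 1451 normalized reads per kilobase. Il7r was thus the lower of the receptor chains in the sorted cells as a whole. Which cells the transcripts of this list came from was not tested.

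Transcription factors of early B cells were all in the table, 12 of 12, with a median of 193 normalized reads per kilobase. The highest by mean were Ikzf1, active in most blood lineages, with 1887, Pax5, which sets B cell identity, with 571, and Spib with 1091. Sox4 was lowest with 30.3. With the median transcript length Pax5 had 4532 and Spib 3567, so that their order turned. Of the markers of mature B cells, 10 of 10 lay above Vpreb3, the highest precursor gene, per kilobase of the longest transcript, and 9 of 10 with pooled exons as the length. Their median was 1138 normalized reads per kilobase. The highest by mean, Cd37, Ighd and Cd22, stood at 3305, 3356 and 1286, and the lowest by mean, Fcrla, at 807. The summed level of the 8 precursor genes per kilobase was 4.94% of that of the 10 mature B cell genes, or 2.66% with the median transcript length. The part of mature B cells in the level of each member was not tested.

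Marker lists of other lymphoid and progenitor cells were measured as well. A sort on CD11b with Ly6C or Ly6G is meant to leave out most such cells, and the study's methods name both flow sorting and magnetic beads without saying which was used for these samples. Of 12 T cell genes, 11 had a mean of at least 10, with a median of 208 normalized reads per kilobase. Lck, Cd4 and Trbc2, which had the highest means, stood at 418, 244 and 787 normalized reads per kilobase. Ptcra, the pre-T cell receptor chain made in the thymus, had 6 reads in 4 of the 8 libraries, which is 0.642 normalized reads per kilobase. The genes of natural killer and innate lymphoid cells had a median of 25.4 over 8 genes, against 22.5 over all genes and 82.7 over protein-coding genes. The 3 highest by mean, though not all per kilobase, were Il1rl1, Eomes and Klrd1, with 23.8, 33.4 and 123 normalized reads per kilobase. For plasmacytoid dendritic cells the median of 8 genes was 76.1 normalized reads per kilobase. The highest by mean, Spib, Ly6d and Tcf4, stood at 1091, 2967 and 102 per kilobase, and the lowest by mean, Klk1, at 30.1. Per kilobase, 3 of the 8 genes, Spib and Ly6d among them, exceeded Vpreb3, or 4 with the median transcript as the length. Spib and Ly6d are also made by B cells.

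Stem and progenitor genes had a median of 25.8 normalized reads per kilobase over 10 genes. This was above the 22.5 of all genes and below the 82.7 of protein-coding genes. The order against all genes turned with the median transcript (30.4 against 34.8) and with pooled exons (15.0 against 18.8). It held with the longest protein-coding transcript (28.4 against 23.5). Erg had 236, Cd93 117 and Kit 68.2, while Mecom had 22 reads in 4 of the 8 libraries. The 10 neutrophil genes had a median of 85973 normalized reads per kilobase, led by S100a9 with 1397990, S100a8 with 829960 and Ngp with 184077, and the lowest by mean was Ly6g with 8346. The 10 monocyte genes had a median of 920, below the 1138 of the mature B cell genes, with Itgam, the gene of CD11b, at 11546, Csf1r at 4714 and Ly6c2 at 5378, and Ly6c1 lowest with 73.7. No gene of any list was at 0, which holds for all 23084 genes of the table. The precursor genes summed to 0.0259% of the neutrophil genes and 2.87% of the monocyte genes per kilobase, the latter 1.53% with the median transcript length.

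**Figure D2:**
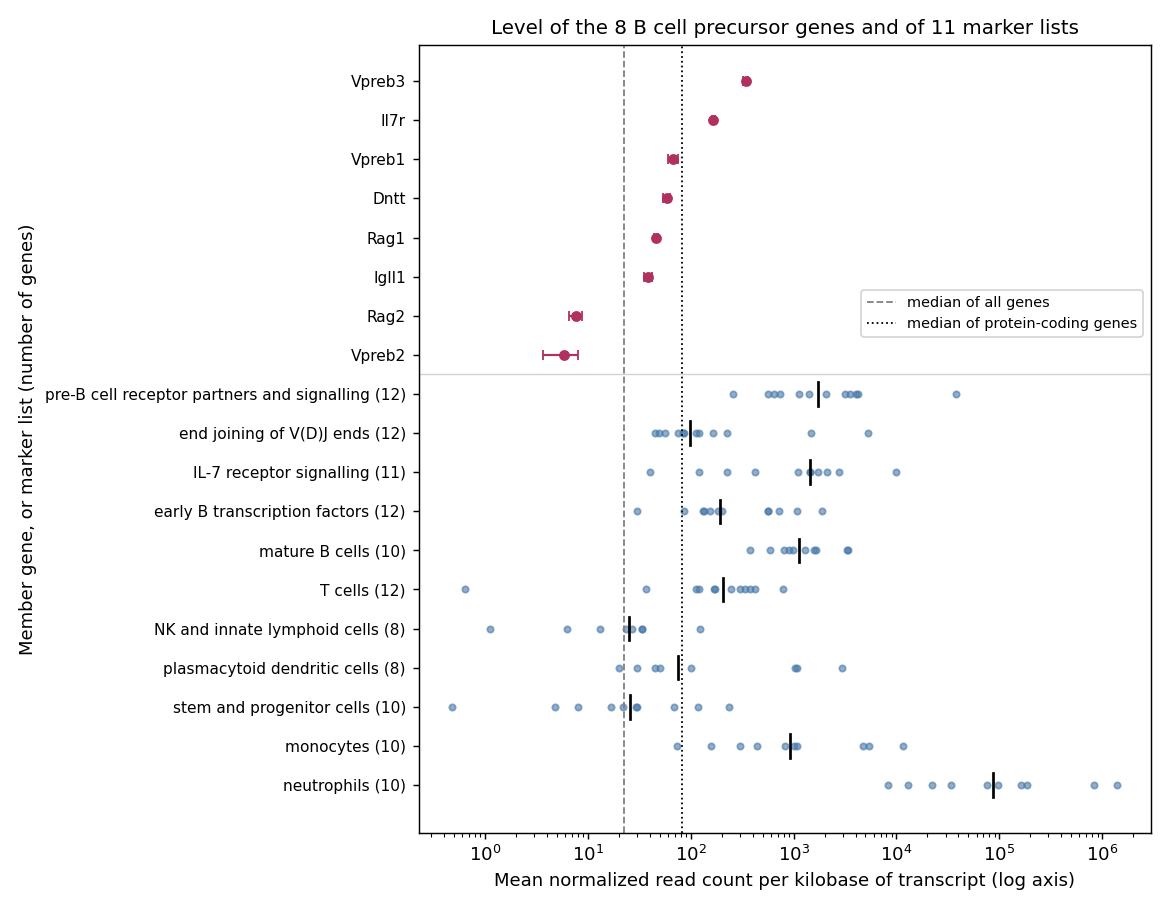
Mean normalized read count per kilobase of the longest transcript on a log axis, for each B cell precursor gene (red, with 95% counting intervals) and for the genes of 11 marker lists (blue points, black bars at the median of each list, number of genes in brackets). The dashed line is the median of all genes, 22.5, and the dotted line that of protein-coding genes, 82.7; 6 of 8 precursor genes lie to the right of the first and 2 to the right of the second, and all 10 mature B cell genes lie to the right of Vpreb3 at 342.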

How the data were processed

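RNA-sequencing reads of the 8 samples were trimmed with cutadapt 1.14, aligned to mm10 with STAR 2.5.2b and counted with RSEM 1.3.0 by the authors, per the labels and the study's methods. The signal used was the authors' deposited mean of counts divided by DESeq2 1.20.0 size factors. The other columns of the table (log2 fold change, standard error, test score, p-value, adjusted p-value and fold change) hold the authors' own comparison and were not used, so no test between groups was made. The study's methods give sequenced reads per sample only as a range, and the size factors, which also depend on library composition, were not read as depth. From the mean, levels per kilobase, counting intervals and whole-read solutions were computed with Python 3.11.15, numpy 2.4.6 and scipy 1.17.1, and the solver was tested on simulated counts. Sequences were compared with Biopython 1.88 and figures drawn with matplotlib 3.10.9. The authors counted with GENCODE M12, whereas lengths, positions and overlaps came from the later GENCODE M21, which held 23004 of the 23084 gene identifiers.

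The members and lists were chosen with earlier results of these data known. Named genes are the 8 members and, of each list, the 3 with the highest mean, the lowest and any at 0, except that 1 result is not reported here. Cd79a, Il2rg, B230118H07Rik, Top3b and the neighbours of Vpreb3 were chosen after their values were seen. Where a symbol occurred more than once, its highest mean was used.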

Additional observations from a re-analysis of the deposited data

How the results depend on the processing

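No paired analysis was possible because the mean gives no values per labelled sample. The count of members above the median gene per kilobase was 6 with the longest transcript, the median transcript, the exons pooled and the longest protein-coding transcript, the last chosen after seeing the data. Against the median of protein-coding genes, also chosen after seeing the data, it was 2 with the first 3 lengths and 3 with the last. Most members thus lay above the median gene in the one comparison and below it in the other. With the median transcript, the median of protein-coding genes rose from 82.7 to 176 and that of all genes from 22.5 to 34.8. Of 24 levels of single members under those other lengths, 11 left the counting interval of the main value, since the length itself differs. With a minimum mean of 100 in place of 10, 4 members passed in place of 7, and with 1, all 8, beside 44.3% and 85.2% of all genes. The members' median percentile by mean was 55.8 among all genes, 38.1 among protein-coding genes and 58.4 per kilobase, so that protein-coding genes as the background moved it below the middle. Summing the rows of repeated symbols moved the monocyte sum from 102510 to 103262 and no other list's sum. A tolerance 10 times wider gave 12 solutions for Vpreb2 in place of 3, and no member had exactly 1 solution with either. Fewer libraries were not allowed by the values, since leaving out any of the 8 steps left at least 935 of 3416 means under 1 with no solution. The spread of members over libraries, on other scales or without a library, was not run, because it needs a single solution. Median transcript lengths also raised the list medians per kilobase, from 99.5 to 349 for end joining, 193 to 512 for early B transcription factors, 1138 to 2305 for mature B cells, 208 to 376 for T cells, 25.4 to 55.3 for natural killer and innate lymphoid cells, 76.1 to 496 for plasmacytoid dendritic cells and 85973 to 129873 for neutrophils. Of 113 single list genes, 61 were higher by over 1.5 times with the median transcript, among them Jak1 (2754 to 21443), Hmgb2 (5264 to 20960) and Ikzf1 (1887 to 7944), 19 were lower by as much with pooled exons and 6 higher with the longest protein-coding transcript. With pooled exons the medians of plasmacytoid dendritic cells and of stem and progenitor cells were 39.9 and 15.0, beside 18.8 over all genes. Depth limits Vpreb2 and Rag2 most.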

Other observations

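Over the 6104 genes with a single solution, each library's summed reads divided by its size factor and by the number of libraries lay between 752 and 936, and the library with the largest size factor was at 795. Size factors are set to put libraries on a common scale, so the closeness of these sums was not read as a result. Single low genes were less even. Of the 22 reads of Mecom, 11 lay in 1 library and 7 in another, with 4 libraries at 0 reads, whereas AA914427, the nearest listed gene to Vpreb2 among those solved, had 24 reads spread over all 8 libraries. These genes were chosen after their values were seen, and the libraries carry no label.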
